A study of Rattus norvegicus with 60 samples.

Results

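Amygdala RNA of male HR rats at postnatal day 14 (P14, 5 arrays) was compared with amygdala RNA of male HR rats at postnatal day 7 (P7, 5 arrays), which used 10 of the 60 samples of the series. These 10 arrays are the ones that the labels assign to the HR line, the amygdala and the ages P14 and P7. HR and LR are lines bred selectively from Sprague-Dawley rats, and the series follows them during development as a model of differing anxiety-like and depression-like behaviour. The HR rats at both ages shared line, background strain and sex, the labels give no treatment, and each single-colour NimbleGen array held total RNA from parts of the amygdala cut out of frozen brain sections that had been located on stained neighbouring sections. Set beside them were 5 arrays each of LR amygdala at P14, LR amygdala at P7, HR amygdala at P21, HR prefrontal cortex at P14 and HR prefrontal cortex at P7, all from male rats. Arrays are not tied to litters or animals in the labels, so each p-value rests on the spread among arrays, which may be technical. The column names hold sample codes that the labels do not explain. Some arrays share a code prefix, with 4 prefixes among the 5 P14 arrays, 3 among the 5 P7 arrays and 1 found at both ages. Several full codes recur in the prefrontal columns of the same age, so arrays and regions may not be independent.

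In the rat, the days between P7 and P14 belong to a time in which oligodendrocytes of the forebrain begin to wrap axons in myelin, neurons turn from extending processes to forming synapses, and the energy demand of the tissue grows. Microtubules made of alpha- and beta-tubulin fill the growing axon, and proteins such as GAP-43 act in its growth cone. Mature neurons rely on the respiratory chain, whose complexes sit in the inner mitochondrial membrane and drive ATP synthase. The amygdala holds peptide-expressing neurons and interneurons that take part in fear and social behaviour.

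All values are intensities normalized by the authors, and differences are on the log2 scale as P14 minus P7, with the standard error (SE) of a limma fit over the 30 amygdala arrays. Rows were called where the p-value, adjusted by Benjamini and Hochberg's method over all 17519 rows, was under 0.05. The 5 P14 arrays correlated with each other at 0.946 to 0.961, the 5 P7 arrays at 0.946 to 0.95, and arrays of different ages at 0.909 to 0.923. Of 21 measured markers of amygdala and neighbouring nuclei, 13 lay at or above the median row of the table, an intensity of 64.4, as did 9 of 15 markers of hypothalamus and thalamus and 7 of 11 of choroid plexus and ependyma, so these lists do not tell the labelled tissue from its neighbours. Array numbers put all P14 arrays (41 to 45) and all P7 arrays (51 to 55) into different runs of 12 consecutive numbers, called array sets here. A set was assumed to hold 12 arrays, since the labels name none, and within HR amygdala age and array set cannot be told apart. LR amygdala at P14 was the group of this age that spanned both sets, with 3 arrays (46 to 48) in the set of the HR P14 arrays and 2 (49 and 50) in the set of the HR P7 arrays. A fit with array set as a block took its correction for these 2 sets from those 5 arrays alone. Of these, arrays 47 and 48 had median intensities of 64.3 and 61.4, against 69.8, 70.8 and 69.9 for arrays 46, 49 and 50. The median HR difference over all rows was 0.11 in the block fit and 0.00 without the block. The part of the 2 dimmer arrays in the block values was not tested. Where this block ended the HR call of a gene whose HR difference is given here, this is said with the gene.

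Intensity differed between P14 and P7 in a large part of the table. Of 17519 rows, 3078 (17.6%) were called, 1628 (9.29%) higher at P14 and 1450 (8.28%) lower. The 5 P14 arrays all lay above the 5 P7 arrays in 1211 rows (6.91%) and all below them in 1114 rows (6.36%). The median size of a called difference was 0.84, and the called rows past 1 numbered 574 higher and 418 lower, while the median over all rows was 0.00. In the fit with array set as a block, 91.3% of the called rows kept their sign and 10% were still called; that fit called 404 rows in all (2.31%), 260 higher (1.48%) and 144 lower (0.822%). The median SE of the rows called without the block was 0.408 in the block fit and 0.241 without it.

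A gene of the myelin sheath held one of the largest rises. Mobp encodes a myelin-associated basic protein of oligodendrocytes. Its intensity was 3369, 3130, 3876, 3288 and 3793 at P14, against 648, 657, 579.9, 668 and 538 at P7. Every P14 array lay above every P7 array. The difference was 2.50 ± 0.12 (adjusted p = 4.98e-16), and a second row of Mobp, from another transcript, differed by 1.56 ± 0.29 (adjusted p = 0.000236). The block for array set gave 2.31 ± 0.21 (adjusted p = 1.51e-08), and the gene stayed called.

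Most other genes of myelin did not pass the test. Of 27 measured genes of myelin and oligodendrocytes, 6 (22.2%) were called higher and 1 (3.7%) lower, with a median of 0.12; the background over all genes, with 1 row each, was 9.09% higher and 8.39% lower. Mbp encodes myelin basic protein. Its brightest row had intensities of 420.3, 341, 364, 379.5 and 307 at P14, against 222, 333, 247, 146 and 171 at P7. The lowest P14 array lay below the highest P7 array. The difference was 0.75 ± 0.24 (adjusted p = 0.0308), and the call was lost without any 1 of the arrays 41, 43, 44, 54 and 55 (lowest value 0.61) and with array set as a block, at 1.02 (adjusted p = 0.247). Its 4 other rows, for other transcripts, differed by -0.60, 0.86, 1.01 and 1.29. Gsn, for the actin-severing protein gelsolin, was higher by 0.85 ± 0.20 (adjusted p = 0.00217), and the call was lost with array set as a block at 0.44 (adjusted p = 0.575). Mog, for a glycoprotein of the outer myelin surface, did not pass the test at -0.62 ± 0.28 (adjusted p = 0.124). The gene called lower was Qdpr, which encodes dihydropteridine reductase, with a difference of -0.91 ± 0.16 (adjusted p = 8.18e-05), and it stayed called with array set as a block at -1.14. The summed intensity of the list was 7190 to 9675 at P14 and 3159 to 3943 at P7. None of the 5 measured markers of oligodendrocyte precursors was called by limma, and 0 had an unadjusted p under 0.05. In dissected tissue, more cells of a type and more RNA per cell cannot be told apart.

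The window from 250 bases before to 50 bases after the start of Mobp is shown because it begins with a repeat of one short motif (RefSeq, assembly GRCr8, chr8:128746982-128747281, plus strand). The capitals mark each match of CTTTGT, the reverse complement of ACAAAG, which is known as a core motif of SOX-family factors such as the oligodendrocyte regulator SOX10.
Mobp: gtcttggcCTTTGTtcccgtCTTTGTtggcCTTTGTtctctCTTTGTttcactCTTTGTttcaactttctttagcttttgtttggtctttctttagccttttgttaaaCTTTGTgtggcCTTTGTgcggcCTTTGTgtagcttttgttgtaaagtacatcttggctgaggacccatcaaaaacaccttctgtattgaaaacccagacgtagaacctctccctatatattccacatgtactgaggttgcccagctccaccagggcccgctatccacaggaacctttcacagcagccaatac
This window holds 8 matches. The motif was chosen after the sequence had been read. On either strand it occurs at least once in 18.3% of 27457 RefSeq windows of this length, and 2 windows (0.00728%) hold as many as 8. A match describes the sequence and is not evidence of binding.

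**Figure D1:**
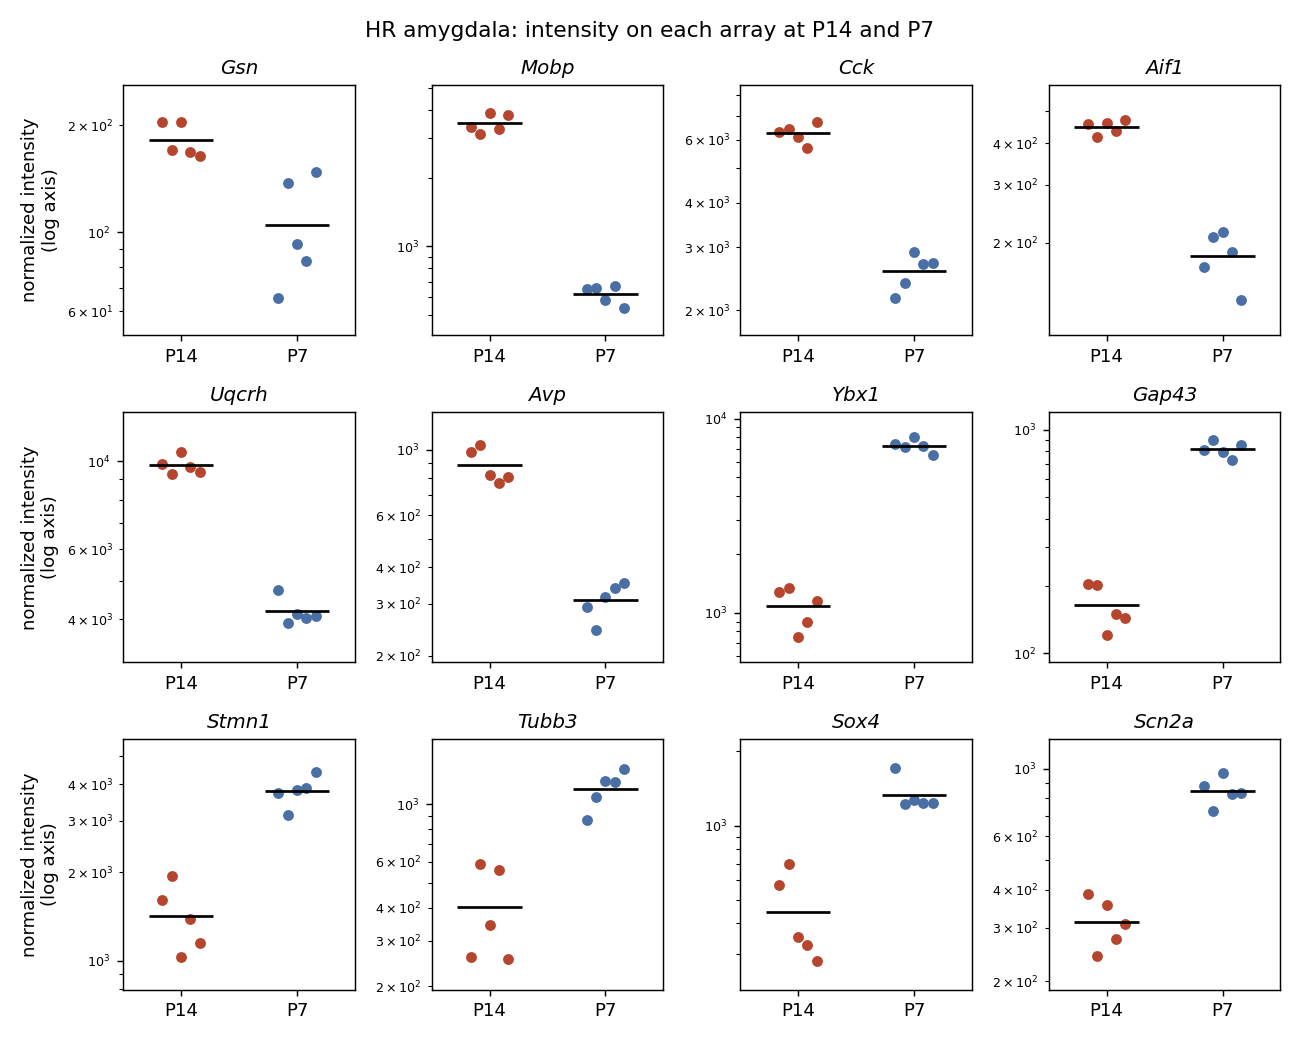
Normalized intensity (log axis) of 12 genes on each of the 5 HR amygdala arrays at P14 (left) and the 5 at P7 (right); each point is an array and each line the group mean. In all 12 genes the P14 and P7 arrays do not overlap: Gsn, Mobp, Cck, Aif1, Uqcrh and Avp lay higher at P14, and Ybx1, Gap43, Stmn1, Tubb3, Sox4 and Scn2a lay lower.

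Most measured subunits of the respiratory chain and ATP synthase rose. Of 53 measured genes of oxidative phosphorylation, 33 (62.3%) were called higher at P14, 3 lower and 17 neither, against 9.09% and 8.39% over all genes. The median difference was 0.44. The called rises ran from 0.33 to 1.22. The summed intensity of the list was 373900 to 390400 at P14 and 272500 to 277100 at P7. In the block fit the median was 0.36, and 6 members were called higher and 1 lower, against 1.48% higher and 0.822% lower over all rows. A fit of the 10 HR arrays alone called 23 members in all, against 36. Over all 17519 rows that fit called 2621, against 3078.

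Uqcrh, a hinge subunit of complex III, had intensities of 9833, 9305, 10540, 9683 and 9400 at P14, against 4750, 3923, 4132, 4029 and 4079 at P7. All P14 arrays lay far above all P7 arrays, and the difference was 1.22 ± 0.12 (adjusted p = 4.51e-09). Ndufa1, a subunit of complex I, had intensities of 8655, 8759, 8224, 9308 and 9704 at P14, against 4539, 4493, 4857, 5112 and 4958 at P7. It differed by 0.90 ± 0.11 (adjusted p = 6.84e-07), and its second row by 0.80 ± 0.11. Cox6c, a nuclear-encoded subunit of cytochrome c oxidase, had intensities of 26550, 29490, 28740, 25670 and 26580 at P14, against 16580, 15040, 15630, 16430 and 14980 at P7. These groups did not overlap either, and the difference was 0.80 ± 0.11 (adjusted p = 3.1e-06). Uqcrq, a further subunit of complex III, was higher by 0.92 ± 0.11. All 4 stayed called with array set as a block, at 0.98, 1.06, 0.78 and 0.79.

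The 3 members that were lower all belong to ATP synthase. Atp5f1b, the catalytic beta subunit, had intensities of 334, 278, 357, 303 and 299 at P14, against 636, 701, 944, 672 and 716 at P7. No P14 array reached a P7 array, and the difference was -1.21 ± 0.15 (adjusted p = 5.14e-07), or -1.29 with array set as a block. The 2 others, singled out after their values were seen, were Atp5pb at -0.55 and Atp5f1d at -0.38, and with the block, at -0.60 (adjusted p = 0.174) and -0.41 (adjusted p = 0.417), neither was called. In the LR line 33 members were called higher and 7 lower, with a median of 0.54, against 6.18% and 10.4% over all rows. The promoter windows of 45 measured members were found in RefSeq, and the motif known from nuclear respiratory factor NRF1 (GCGCA, a base of any kind, then GCGC) occurs on either strand in 10 of them (22.2%), in 6 of the 29 found among members called higher (20.7%) and in 4.71% of all windows. A pair of these windows is shown with the motif in capitals, since both genes were called higher, Atp5po (the oligomycin sensitivity subunit of ATP synthase, chr11:44657434-44657733, minus strand) by 0.92 and Ndufa12 (a subunit of complex I, chr7:30658066-30658365, plus strand) by 0.55; both are from RefSeq, assembly GRCr8.
Atp5po: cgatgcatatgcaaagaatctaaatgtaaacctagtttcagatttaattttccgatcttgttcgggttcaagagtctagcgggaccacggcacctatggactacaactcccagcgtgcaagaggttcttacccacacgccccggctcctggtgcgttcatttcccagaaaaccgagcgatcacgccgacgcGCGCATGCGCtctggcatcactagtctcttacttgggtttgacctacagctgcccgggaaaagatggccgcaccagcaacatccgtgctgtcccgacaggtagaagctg
Ndufa12: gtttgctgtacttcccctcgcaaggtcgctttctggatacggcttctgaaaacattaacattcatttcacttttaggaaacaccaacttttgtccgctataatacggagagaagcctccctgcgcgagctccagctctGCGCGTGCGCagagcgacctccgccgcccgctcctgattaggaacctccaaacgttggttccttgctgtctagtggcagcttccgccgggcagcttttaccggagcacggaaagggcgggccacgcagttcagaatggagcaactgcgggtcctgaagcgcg
These windows hold 1 match each, and the capitals in Ndufa12 are the reverse complement of the motif. Both windows were chosen after the values were known. With array set as a block neither gene was called, at 0.57 (adjusted p = 0.166) for Atp5po and 0.44 (adjusted p = 0.267) for Ndufa12.

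Glycolysis genes did not share this pattern. Of 41 measured genes of glycolysis and the TCA cycle, 1 was called higher and 4 lower (12.2% in all, against 17.5% of all genes), with a median of -0.08. Gapdh, the glyceraldehyde phosphate dehydrogenase often used to scale other genes, had intensities of 1729, 1887, 2847, 2835 and 2353 at P14, against 4032, 4040, 4113, 3648 and 3614 at P7. All P14 arrays lay below all P7 arrays, and the difference was -0.77 ± 0.14 (adjusted p = 2.08e-04). Pkm, pyruvate kinase, differed by -0.57 ± 0.14 (adjusted p = 0.00486). Neither was called with array set as a block, at -0.89 (adjusted p = 0.0534) for Gapdh and -0.62 (adjusted p = 0.238) for Pkm. In the step to P21 that followed, 24 of the 41 were called higher, against 13.5% of all rows, and 1 lower, against 7.33%.

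Many genes of growing axons and young neurons fell. Gap43, the growth cone protein, had intensities of 203, 203, 120.5, 149.6 and 143 at P14, against 811, 904, 797, 732 and 852 at P7. The groups lay far apart, at a difference of -2.35 ± 0.17 (adjusted p = 7.22e-12). Ybx1 encodes an RNA- and DNA-binding cold shock protein. It had intensities of 1274, 1346, 748, 890.2 and 1142 at P14, against 7420, 7158, 7988, 7210 and 6490 at P7. Ybx1 differed by -2.78 ± 0.14 (adjusted p = 2.91e-15), and its second row by -2.60 ± 0.14. Both genes kept their size with array set as a block, -2.28 for Gap43 and -2.73 for Ybx1, and both stayed called.

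Of 28 measured genes of immature neurons and axon growth, 14 (50%) were called lower, 2 higher and 12 neither, with a median of -0.38. Over all genes 8.39% were called lower and 9.09% higher. In the block fit 6 were called lower and 0 higher, with a median of -0.52, against 0.822% lower and 1.48% higher over all rows. Stmn1, which encodes the microtubule-destabilising protein stathmin, had intensities of 1616, 1944, 1029, 1387 and 1152 at P14, against 3720, 3141, 3808, 3879 and 4407 at P7. No P14 array reached a P7 array, and the difference was -1.44 ± 0.15 (adjusted p = 2.25e-08). Sox4, a transcription factor of newly formed neurons, had intensities of 576, 699, 353, 326 and 283 at P14, against 1708, 1221, 1270, 1231 and 1238 at P7. The groups did not overlap, and the difference was -1.65 ± 0.22 (adjusted p = 3.1e-06), while a second row of Sox4 had -0.06 ± 0.24. Both stayed called with array set as a block, Stmn1 at -1.43 and Sox4 at -1.75. Sox11, its close relative, did not pass the test at 0.54 ± 0.31 (adjusted p = 0.242). The 2 members that were higher, named after their values were seen, were Marcksl1, a substrate of protein kinase C, at 2.01, and Dpysl3, a collapsin response mediator, at 0.95. The block fit gave 0.39 and 0.77, and neither was called.

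Tubulins and microtubule proteins overlap with that list in 6 of its called members and moved the same way. Of 29 measured, 17 (58.6%) were called lower and 0 higher by limma, with 18 lower and 0 higher at an unadjusted p under 0.05, and the median was -0.54. Over all genes 8.39% were called lower and 9.09% higher. Tubb5, a beta-tubulin abundant in the developing brain, had intensities of 78.3, 48.4, 78.5, 62.8 and 47.97 at P14, against 406, 336, 415, 348 and 339.7 at P7. Its difference was -2.57 ± 0.24 (adjusted p = 3.4e-09). Tubb3, the beta-tubulin used as a marker of neurons, had intensities of 260.3, 591, 345, 559 and 254 at P14, against 871, 1062, 1226, 1215 and 1357 at P7. It differed by -1.59 ± 0.19 (adjusted p = 3.44e-07). Tuba1b, an alpha-tubulin, differed by -1.26 ± 0.15 (adjusted p = 2.53e-07). The block fit called 7 of the 29 lower and 0 higher, against 0.822% lower and 1.48% higher over all rows. Among the 7 were Tubb5 at -1.61, Tubb3 at -1.70 and Tuba1b at -1.30. Tubulin genes are close in sequence, and which probes tell them apart was not tested.

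Of 24 measured genes of the cell cycle, 4 (16.7%) were called lower and 0 higher by limma, against 8.39% and 9.09% over all genes, with 5 lower and 0 higher at an unadjusted p under 0.05. Stmn1 is one of the 4. Cdk4, the cyclin-dependent kinase of the early cell cycle, had intensities of 231, 199, 185, 181 and 98.9 at P14, against 421, 428, 374, 431 and 420.2 at P7. It was lower, with a difference of -1.27 ± 0.20 (adjusted p = 2.35e-05), and stayed called with array set as a block at -1.44. The median of the list was -0.17, and 0.02 in the block fit. The summed intensity of the list was 5443 to 6916 at P14 and 9828 to 12680 at P7. Much of this fall lay in Stmn1, with means of 1425 at P14 and 3791 at P7, and Hmgb2, with 2996 and 5196. Hmgb2, also one of the 4, differed by -0.80 ± 0.19 (adjusted p = 0.00255), and its second row by 0.53 ± 0.19 (adjusted p = 0.0523). Its call was lost with array set as a block at -0.31 (adjusted p = 0.62).

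Among genes of chromatin and DNA methylation, 5 of 32 (15.6%) were called lower and 1 (3.12%) higher, with a median of -0.25, against 8.39% and 9.09% over all genes. Smarca4, the ATPase of the BAF remodelling complex, had intensities of 296, 252, 138, 202 and 157 at P14, against 729, 602, 757, 800.1 and 974 at P7. Its difference was -1.93 ± 0.19 (adjusted p = 1.64e-08). Dnmt1, the maintenance DNA methyltransferase, differed by -1.01 ± 0.19 (adjusted p = 3.33e-04). Hmgb1, a DNA-bending protein of chromatin, differed by -0.95 ± 0.13 (adjusted p = 3.82e-06), with a second row at -0.15 ± 0.27. Hdac5, a histone deacetylase, differed by -0.77 ± 0.14 (adjusted p = 1.2e-04). Smarca4 and Hmgb1 stayed called with array set as a block, at -1.41 and -1.10, whereas Dnmt1 at -0.64 and Hdac5 at -0.79 did not.

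**Figure D2:**
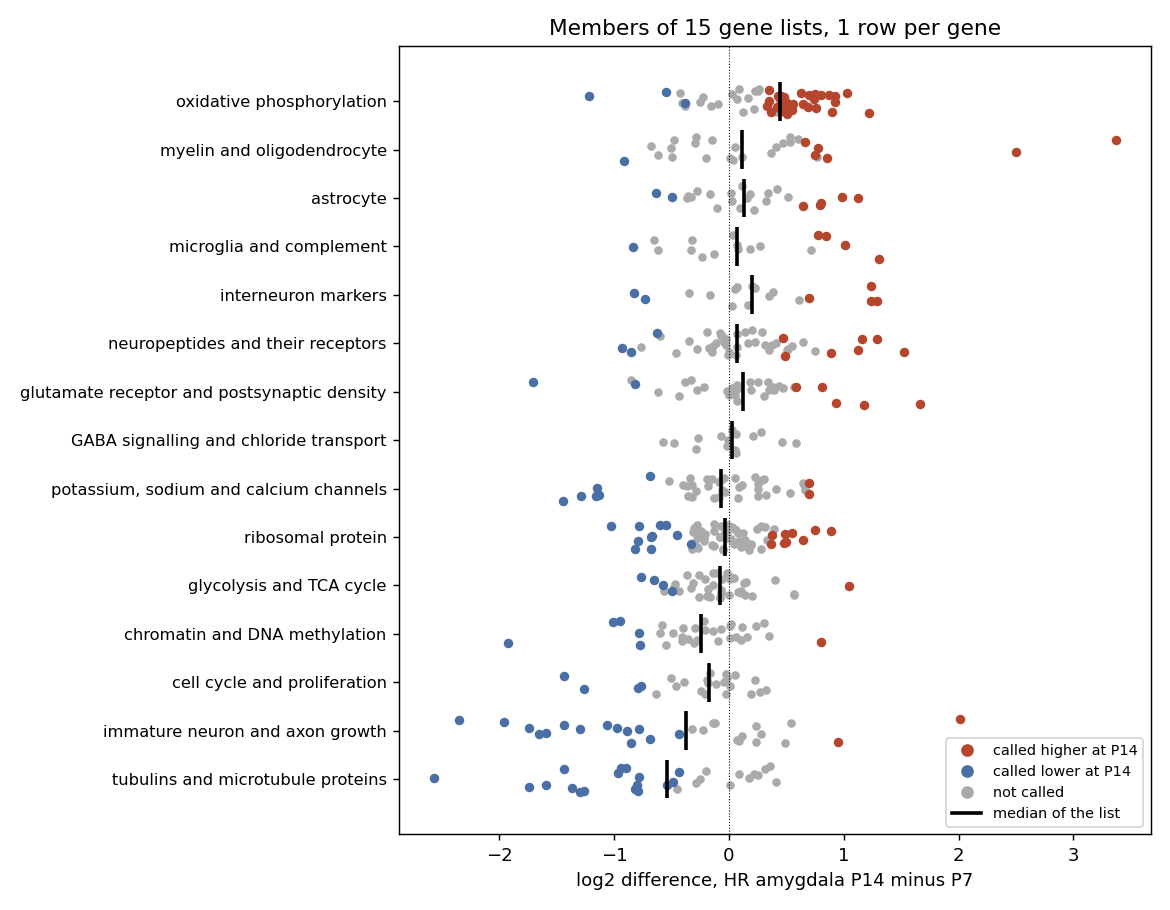
Log2 difference, HR amygdala P14 minus P7, of each measured gene in 15 lists; red points were called higher at P14, blue points lower, grey points neither, and black bars mark the median of each list. Oxidative phosphorylation has 33 of 53 genes called higher with a median of 0.44, and tubulins and microtubule proteins have 17 of 29 called lower with a median of -0.54.

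Some neuropeptides and interneuron markers rose, others fell, and most did not pass the test. Of 45 measured neuropeptides and receptors, 7 were called higher and 3 lower (22.2% in all), and of 17 interneuron markers 4 and 2 (35.3%), against 17.5% of all genes. Cck encodes cholecystokinin, a peptide of cortical and amygdalar neurons. Its intensities were 6314, 6442, 6118, 5679 and 6738 at P14, against 2159, 2390, 2905, 2686 and 2711 at P7. There was no overlap, and the difference was 1.29 ± 0.12 (adjusted p = 4.02e-09). Cartpt, the precursor of the CART peptides, had intensities of 1099, 830.1, 945, 876 and 898 at P14, against 352, 466, 399, 349.7 and 538 at P7. It was higher by 1.16 ± 0.15 (adjusted p = 2.02e-06). Pvalb, the calcium buffer of fast-spiking interneurons, and Cort, the somatostatin-like peptide cortistatin, were higher by 1.24 ± 0.24 (adjusted p = 4.4e-04) and 1.24 ± 0.26 (adjusted p = 8.78e-04). Sst, for somatostatin, and Npy, for neuropeptide Y, did not pass the test, at 0.23 ± 0.13 (adjusted p = 0.229) and 0.07 ± 0.11 (adjusted p = 0.737). Their P14 and P7 arrays overlapped. Called lower were the interneuron markers Calb2, for calretinin, at -0.73 (adjusted p = 0.00834) and Reln, for the secreted protein reelin, at -0.82 (adjusted p = 0.0218). The peptides called lower were Ucn, for urocortin, at -0.86 (adjusted p = 0.00503), Adcyap1, for PACAP, at -0.63 (adjusted p = 0.00616), and Crh. In the block fit Calb2 had -0.81 (adjusted p = 0.253), Reln -0.29 (adjusted p = 0.805), Ucn -0.34 (adjusted p = 0.719) and Adcyap1 -0.37 (adjusted p = 0.58), and none of these 4, named after their values were seen, was called. Cck stayed called with array set as a block at 1.16, and Cartpt (0.92), Pvalb (1.47) and Cort (0.80) did not.

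Avp encodes the precursor of vasopressin, a peptide of the hypothalamus and of the medial amygdala. Its intensities were 986, 1041, 819.9, 772 and 812 at P14, against 292, 245, 316, 339 and 352 at P7. All P14 arrays lay above all P7 arrays, at a difference of 1.52 ± 0.20 (adjusted p = 1.63e-06), and with array set as a block it was 1.34 ± 0.31 (adjusted p = 0.0165). Oxt, for oxytocin, did not pass the test at 0.55 ± 0.22 (adjusted p = 0.0849), nor did Pmch, for melanin-concentrating hormone, at -0.14 ± 0.21 (adjusted p = 0.704). Both are, like Avp, abundant in the hypothalamus. Of 15 measured markers of hypothalamus and thalamus, 4 were called higher, Avp and Cartpt among them, and 2 lower. This was 40% in all, against 17.5% of all genes. The median of the 15 was -0.14, and with array set as a block Avp was the only marker called. The summed intensity of the 15 markers was 3099 to 3318 at P14 and 1949 to 2262 at P7. A large part of this rise lay in Avp, with means of 886 at P14 and 309 at P7, and Cartpt, with 930 and 421. The part of dissection borders in the peptide results was not tested. Crh, for corticotropin-releasing hormone, had intensities of 65.2, 113, 103, 169 and 105 at P14, against 196, 289, 195, 202 and 154 at P7. The ages overlapped. The difference was -0.93 ± 0.28 (adjusted p = 0.0164), a call lost without array 41 or array 52 (-0.76 and -0.81), and 0.14 with array set as a block, and its LR P14 arrays differed between the sets by -1.08 without overlap.

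Glutamatergic and channel genes were called about as often as all genes, of which 17.5% were called. Of 32 genes of glutamate receptors and the postsynaptic density, 5 were called higher and 2 lower (21.9% in all), and 0 with array set as a block. Shank1, a postsynaptic scaffold, was higher by 1.66 ± 0.31 (adjusted p = 2.6e-04), and Grin1, the obligatory NMDA receptor subunit, by 1.18 ± 0.22 (adjusted p = 2.98e-04). Camk2b, a synaptic kinase subunit, was lower at -0.82 ± 0.17 (adjusted p = 6.48e-04), and Cacng2, the AMPA receptor auxiliary subunit stargazin, at -1.70 ± 0.28 (adjusted p = 5.63e-05). Other rows of Camk2b differed by 0.25 (adjusted p = 0.569) and -0.58 (adjusted p = 0.00516). In the block fit Shank1, Grin1, Camk2b and Cacng2 had 0.72, 0.45, -0.98 and -0.43. Of 42 channel genes, 2 were called higher and 6 lower (19% in all). Scn2a, the sodium channel of developing axons, had intensities of 388, 242, 356, 276 and 309 at P14, against 875, 728, 971, 824 and 833 at P7. Without overlap between the ages it fell, with a difference of -1.44 ± 0.15 (adjusted p = 3.11e-08), and -1.45 with array set as a block, where it stayed called. Kcna1, a potassium channel of axons, was higher by 0.70 ± 0.17 (adjusted p = 0.00282), a call lost with the block at 0.71 (adjusted p = 0.233).

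Synaptic vesicle genes gave 3 higher and 4 lower of 27, 7 in all (25.9%), against 17.5% of all genes. The 7 came to 3 or 4 without any 1 of the arrays 41, 44, 45, 51, 53 and 55. Cplx2, a complexin that clamps the release machinery, had intensities of 364, 451, 507, 474 and 446 at P14, against 679.9, 803, 1003, 871 and 835 at P7. All P14 arrays lay below all P7 arrays, at -0.90 ± 0.15 (adjusted p = 7.77e-05). Vamp1, a vesicle SNARE, differed by -1.14 ± 0.24 (adjusted p = 7.65e-04). Both stayed called with array set as a block.

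None of 15 genes of GABA signalling and chloride transport was called by limma, with 1 higher and 0 lower at an unadjusted p under 0.05. The chloride transporters Slc12a5 (KCC2), known to rise in maturing neurons, and Slc12a2 (NKCC1), known to fall, differed by 0.46 ± 0.21 (adjusted p = 0.128) and -0.58 ± 0.29 (adjusted p = 0.181). Gad1 and Gad2, the enzymes that make GABA, differed by 0.05 ± 0.25 (adjusted p = 0.915) and 0.03 ± 0.22 (adjusted p = 0.952). Only 4 of the 15 genes lay at or above the median row, and Gad1, at 47.7 ± 7.52 at P14 and 47.5 ± 17.1 at P7 (SD, n = 5 each), lay below it at both ages. None of 24 genes of monoamine signalling and none of 14 striatal markers was called either, with 2 higher and 2 lower, and 0 higher and 3 lower, at an unadjusted p under 0.05.

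Of 17 measured genes of microglia and complement, 4 (23.5%) were called higher and 1 (5.88%) lower, against 9.09% and 8.39% over all genes. Aif1, the microglial calcium-binding protein IBA1, had intensities of 459, 417, 461, 437 and 469.6 at P14, against 169, 209, 216, 188 and 134 at P7. Its groups did not overlap, and the difference was 1.31 ± 0.18 (adjusted p = 3.67e-06), or 1.56 ± 0.31 (adjusted p = 0.00526) with array set as a block. The lysosomal protease Ctss differed by 1.01 ± 0.16 (adjusted p = 2.75e-05) and C1qa, a chain of complement C1q, by 0.85 ± 0.15 (adjusted p = 1.71e-04). The microglial receptor Trem2 was lower at -0.83 ± 0.24 (adjusted p = 0.0136), with a second row at -0.34 ± 0.29. These 3 lost their call with array set as a block, Ctss at 0.66 (adjusted p = 0.23), C1qa at 0.58 (adjusted p = 0.29) and Trem2 at -0.72 (adjusted p = 0.449). Of 24 astrocyte genes, 5 (20.8%) were called higher and 2 (8.33%) lower. Cldn10, a claudin found in astrocytes, was higher by 0.98 ± 0.15 (adjusted p = 1.32e-05), Ntsr2, a neurotensin receptor of astrocytes, by 1.13 ± 0.23 (adjusted p = 5.53e-04), and S100b, a calcium-binding protein, by 0.80 ± 0.15 (adjusted p = 3.29e-04). Apoe, the lipid carrier made by astrocytes, had intensities of 3732, 3883, 4647, 4350 and 4346 at P14, against 6605, 6774, 7090, 6516 and 5610 at P7. All P14 arrays lay below all P7 arrays, at -0.64 ± 0.13 (adjusted p = 6.13e-04). With array set as a block Cldn10 (0.97) and Apoe (-1.01) stayed called, whereas Ntsr2 (adjusted p = 0.0846) and S100b (adjusted p = 0.127) did not. Gfap, the astrocytic filament protein, did not pass the test at 0.10 ± 0.30 (adjusted p = 0.867), and its intensity of 50.6 ± 10.7 at P14 and 49.5 ± 22.6 at P7 (SD, n = 5 each) lay below the median row.

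Some markers of tissue that borders the amygdala were called. Of 16 measured markers of meninges and fibroblasts, 1 was called higher and 0 lower by limma (6.25% in all), with a median of 0.04. At an unadjusted p under 0.05 these were 2 higher and 1 lower. Of 11 markers of choroid plexus and ependyma, 1 was called higher and 2 lower (27.3% in all), with a median of 0.04. Over all genes 17.5% were called. Ptgds, a prostaglandin synthase of meninges and choroid plexus, was higher by 1.18 ± 0.20 (adjusted p = 1.01e-04), and Rarres2, for chemerin, by 1.47 ± 0.17 (adjusted p = 2.51e-07). Folr1, the folate receptor of choroid plexus epithelium, was lower at -1.49 ± 0.20 (adjusted p = 4.26e-06). With array set as a block Ptgds (1.38) and Rarres2 (1.13) stayed called, and Folr1, at -1.15 (adjusted p = 0.0882), did not. Ttr, for transthyretin, the defining choroid plexus gene, had intensities of 38160, 38080, 39610, 37830 and 36860 at P14, against 36450, 37110, 31470, 35290 and 38710 at P7. These groups overlapped, at 0.09 ± 0.14 (adjusted p = 0.696). The summed intensity of the 11 choroid plexus and ependyma markers, most of it from Ttr, was 38060 to 41100 at P14 and 32720 to 40020 at P7. That of the 16 meningeal markers was 1883 to 2602 at P14 and 1784 to 2172 at P7. Of 11 blood cell genes, 2 were called higher and 2 lower (36.4% in all, against 17.5% of all genes). Their sums were 57380 to 65890 at P14 and 61510 to 67470 at P7. Endothelial and mural genes gave 0 higher and 2 lower of 12 by limma (0 and 2 at an unadjusted p under 0.05), 1 without any 1 of the arrays 41, 43, 44, 45, 51 and 53. The part of these tissues in the differences was not tested.

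Most of the genes with the largest differences belonged to none of those lists. Among the 12 with the largest rise and the 12 with the largest fall, each without overlap between the ages, Zfp319, for a zinc finger protein, had intensities of 587, 1421, 1096, 1057 and 1138 at P14, against 41.6, 50.9, 69.1, 85.2 and 65.7 at P7. Its difference was 4.07 ± 0.54 (adjusted p = 2.79e-06), while its second row differed by 0.14 ± 0.24. Fnip2, a folliculin-interacting protein, had intensities of 2906, 5091, 6331, 6261 and 6232 at P14, against 493, 452, 543, 427 and 382 at P7, at 3.50 ± 0.57 (adjusted p = 4.9e-05). F13b, the B chain of coagulation factor XIII, had intensities of 36.9, 38.8, 84.2, 34.9 and 30.2 at P14, against 726, 669, 698, 647 and 643 at P7, at -4.02 ± 0.39 (adjusted p = 1.11e-08), and its second row differed by 0.06 ± 0.23. In all 3 the ages were far apart in the brightest row. With array set as a block Zfp319, at 0.83 (adjusted p = 0.442), and Fnip2, at 0.83 (adjusted p = 0.352), were not called, and F13b was -1.32 (adjusted p = 0.0435).

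The same genes separated the array sets within LR amygdala of 1 age. In LR at P14, arrays 46 to 48 minus arrays 49 and 50 gave 3.24 for Zfp319, 2.67 for Fnip2 and -2.69 for F13b. The 3 arrays lay beyond the other 2, in the direction of the HR difference, for 10 of the 12 genes ranked higher and 10 of the 12 ranked lower. Over all rows this was so in 10.5% upward and 19.3% downward, and among HR rows called higher and lower in 28.5% and 37.2%. With the block for array set 3 of the 12 higher (Mobp and Ero1b among them) and 4 of the 12 lower (F13b, Ybx1, Tubb5 and Gap43) were called. Sympk, a scaffold of mRNA 3' end processing, then had 0.02 against 2.35 without the block, and V1ra14, a vomeronasal receptor, -0.20 against 2.06. RT1-O1 and RT1-M6-1, genes of the rat major histocompatibility complex, had 0.08 and 0.26 against -2.23 and -2.20. Pax5, a B cell transcription factor, and Artn, for the growth factor artemin, had 0.05 and 0.09 against -2.18 and -2.12. The remaining ranked genes were Fam241b, Rflnb, Or1o2e, Hmgb4l8 and Hmgb4l2 among the higher and Pimreg, Slurp1, Fdcsp and Cby1 among the lower, and none of these was called with the block. Second rows of Sympk and Rflnb differed by 0.56 ± 0.21 (adjusted p = 0.0652) and -0.06 ± 0.30 (adjusted p = 0.92) without the block.

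Ero1b, an oxidoreductase of the endoplasmic reticulum, was a ranked gene outside myelin that stayed called. It had intensities of 279, 346, 292, 217 and 222 at P14, against 74.9, 59.5, 63.99, 74.9 and 55.8 at P7, at 2.03 ± 0.23 (adjusted p = 1.8e-07) and, with array set as a block, 1.59 ± 0.31 (adjusted p = 0.0049). The same split of LR P14 arrays was applied to the lists. In the direction of the HR difference, 13 of the 33 higher oxidative phosphorylation genes (39.4%) did not overlap between the sets. For the 14 lower genes of immature neurons this was 2 (14.3%), and for the 17 lower tubulin genes 6 (35.3%). In the opposite direction the counts were 4, 2 and 3. Among all HR rows called higher and lower, the shares in the direction of the HR difference were 28.5% and 37.2%, with 90 of 1628 and 73 of 1450 rows opposite. When the called rows were divided into 4 groups of equal size by mean intensity, the share also called with the block was 1.82% in the dimmest and 17.9% in the brightest group.

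**Figure D3:**
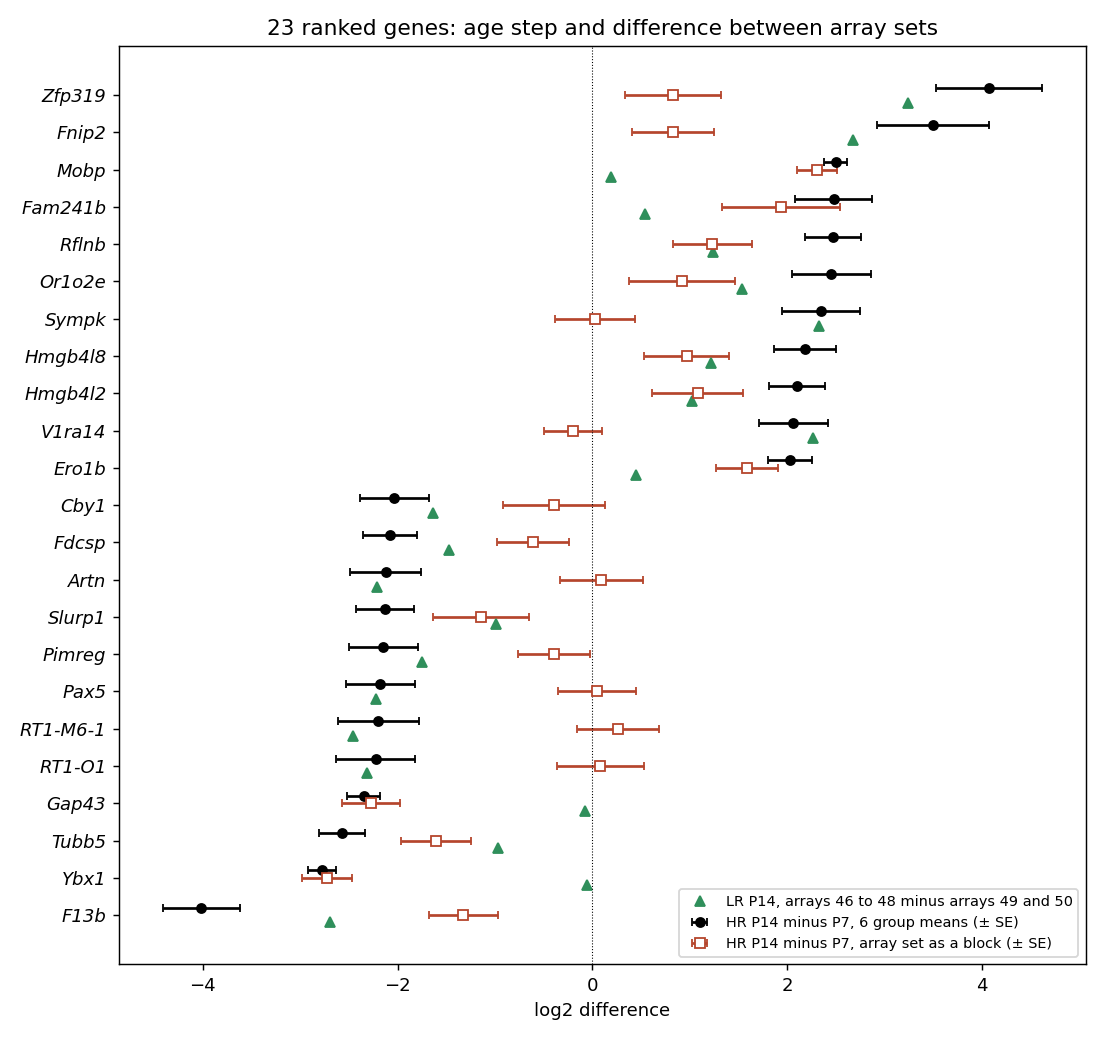
Log2 differences of 23 of the 24 ranked genes: HR amygdala P14 minus P7 from 6 group means (black, ± SE), the same with array set as a block (red squares, ± SE), and LR amygdala at P14, arrays 46 to 48 minus arrays 49 and 50 (green triangles, no error shown). Mobp, Ybx1 and Gap43 lie at about the same place in both fits, whereas Sympk, V1ra14, RT1-O1, RT1-M6-1, Pax5 and Artn lie near 0 in the block fit.

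Whether the HR line took this step differently from the LR line was tested as the HR difference minus the LR difference. The HR P14 arrays lie in 1 array set and the LR P14 arrays in 2, so this test mixes line and array set in part. The difference between the steps was called in 452 of 17519 rows (2.58%), 343 higher (1.96%) and 109 lower (0.622%), so that 75.9% of the calls were higher. The share of higher calls was 61.5% after quantile normalization and 63% after centring each array on its median. In LR amygdala alone 2896 rows (16.5%) were called between P14 and P7. The test was not passed by 4 genes described above, for which the 2 differences, HR and then LR, were 2.50 and 2.27 for Mobp, -2.35 and -2.01 for Gap43, 1.29 and 1.36 for Cck, and 1.22 and 1.22 for Uqcrh. In the same order, HR minus LR was 0.23 ± 0.17 (adjusted p = 0.557), -0.34 ± 0.24 (adjusted p = 0.512), -0.07 ± 0.17 (adjusted p = 0.886) and 0.00 ± 0.16 (adjusted p = 0.997).

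The genes with a called difference between the steps fell into several patterns. Cpe encodes carboxypeptidase E, which processes neuropeptides. Its HR arrays had 285, 319, 454, 398 and 374 at P14, against 326, 307, 271, 209.5 and 291 at P7. LR arrays averaged 329 ± 115 at P14 and 1569 ± 251 at P7 (SD, n = 5 each), so that Cpe fell in LR with a difference of -2.32 ± 0.20 (adjusted p = 4.82e-10) and did not pass the test in HR at 0.38 ± 0.20 (adjusted p = 0.212). The difference between the steps was 2.70 ± 0.29 (adjusted p = 5.07e-07), and a second row of Cpe had -0.03 ± 0.25 in HR. Hspa8, the constitutive HSP70 chaperone, and Tubb2b, a beta-tubulin of migrating neurons, fell in both lines but less in HR, with -0.90 and -1.30 in HR, against -3.51 and -3.90 in LR, and the steps differed by 2.60 ± 0.31 (adjusted p = 2.25e-06) and 2.60 ± 0.28 (adjusted p = 6.18e-07). In the block fit the HR differences were -0.21 (adjusted p = 0.83) for Hspa8 and -1.02 (adjusted p = 0.119) for Tubb2b, and neither was called. Tubb2b averaged 33.9 ± 8.21 in HR and 49.4 ± 12.5 in LR at P14, and 84.3 ± 24.1 in HR and 720 ± 46.7 in LR at P7. Tubb3 averaged 402 ± 162 in HR and 645 ± 37.2 in LR at P14, and 1146 ± 186 in HR and 5072 ± 719.5 in LR at P7. In both tubulins the lines lay farther apart at P7, where all HR and LR arrays belong to 1 array set, than at P14.

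Other genes passed the test of a rise in HR and not in LR. Hlf encodes a PAR-domain transcription factor that follows the circadian clock. It had HR intensities of 458, 263, 386, 485 and 413 at P14, against 75.2, 116, 135, 108 and 81.95 at P7. The HR difference was 1.96 ± 0.29 (adjusted p = 1.31e-05) and the LR difference -0.50 ± 0.29 (adjusted p = 0.271), and the steps differed by 2.47 ± 0.41 (adjusted p = 4.06e-04). Its second row was higher in HR too, by 1.15 ± 0.28. The HR rise of Hlf was no longer called with array set as a block (adjusted p = 0.106). Avp differed between the steps by 2.05 ± 0.28 (adjusted p = 1.99e-05), with an LR difference of -0.53 ± 0.20 (adjusted p = 0.0639). Ptgds rose in HR and fell in LR, where its difference was -0.85 ± 0.20 (adjusted p = 0.00331), and the steps differed by 2.03 ± 0.29 (adjusted p = 4.49e-05). Grin1, with -0.28 ± 0.22 (adjusted p = 0.446) in LR, gave a difference of 1.46 ± 0.31 (adjusted p = 0.00766).

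Scn2a and Cplx2 fell in HR, while in LR Scn2a had 0.02 ± 0.15 (adjusted p = 0.963) and Cplx2 0.25 ± 0.15 (adjusted p = 0.303). The steps differed by -1.46 ± 0.21 (adjusted p = 5.57e-05) and -1.15 ± 0.22 (adjusted p = 0.00187). For Scn2a the level was 314 ± 59.1 in HR and 738 ± 55.4 in LR at P14, and 846 ± 88.1 in HR and 733 ± 86.7 in LR at P7. The 6 genes ranked by a lower HR step were F13b, Hist2h2be, Or52p1, C1h19orf12, Uba3 and Alox5ap, with differences between the steps from -2.02 to -1.57. On LR P14 arrays 46 to 48 F13b had 65, 63.5 and 44.2, against 378.5 and 355 on arrays 49 and 50. C1h19orf12 also separated these sets without overlap, at -1.02, and Hist2h2be, Or52p1, Uba3 and Alox5ap did not. The call of the difference between the steps was lost for F13b, C1h19orf12 and Uba3 in most fits that left out 1 array. In the block fit 482 rows were called for the difference between the steps, against 452 without it.

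**Figure D4:**
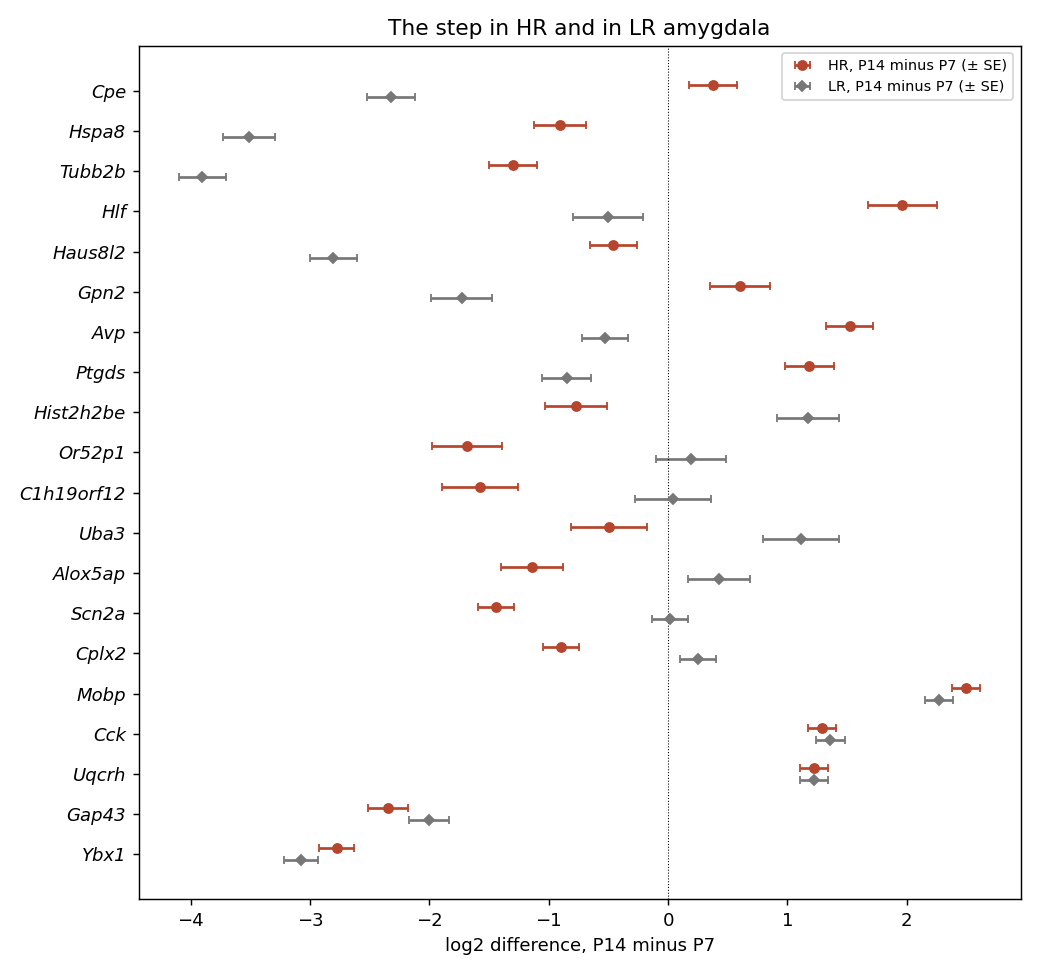
Log2 difference, P14 minus P7, with its SE in HR amygdala (red circles) and LR amygdala (grey diamonds) for 20 genes. The first 15 from the top had a called difference between the lines' steps, with Cpe at 0.38 in HR and -2.32 in LR, and the last 5 (Mobp to Ybx1) did not, with Mobp at 2.50 in HR and 2.27 in LR.

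The next step of the same line, from P14 to P21, shares the P14 arrays with the step from P7 to P14, so the values are only set side by side; 3646 rows (20.8%) were called in it, 64.8% of them higher at P21 (53.7% after quantile normalization). Mobp averaged 618 ± 56.4 at P7, 3491 ± 326 at P14 and 6130 ± 623 at P21, and Gsn 105 ± 35.5, 182 ± 20.1 and 372 ± 79.8 (SD, n = 5 each). Both were higher again at P21, Mobp by 0.81 ± 0.12 (adjusted p = 1.02e-05) and Gsn by 1.01 ± 0.20 (adjusted p = 2.95e-04). Uqcrh averaged 4182 ± 326, 9751 ± 488 and 9365 ± 774, and its second step of -0.06 ± 0.12 (adjusted p = 0.766) did not pass the test. Avp averaged 309 ± 42.5, 886 ± 119.5 and 218 ± 33.4, so that P14 was the age with the highest mean. Its HR arrays at P21 ranged from 176 to 267, below every P14 array.

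Some genes were lowest at P14. Sparc encodes a matrix protein of glia and vessels. It had intensities of 1320, 1022, 1743, 1654 and 1408 at P14, against 2706, 2707, 2738, 2891 and 2565 at P7, at -0.95 ± 0.14 (adjusted p = 8.55e-06) (-1.06 with the block, still called), and rose to 6346 ± 822 at P21. Apoe did the same, at 6519 ± 553, 4192 ± 375 and 12460 ± 1324 from P7 to P21, as did Atp5f1b at 734 ± 122, 314 ± 31.4 and 1224 ± 243. In LR, Sparc was lowest at P14 too, with a P14 minus P7 difference of -1.18 ± 0.14 (adjusted p = 1.02e-07). The ranked genes Zfp319 and Fnip2, at 53.3 ± 10.3 and 636 ± 114 at P21, were again near their P7 means of 62.5 ± 16.9 and 459 ± 61.8. The P21 arrays of HR (31 to 35) lay in another array set.

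**Figure D5:**
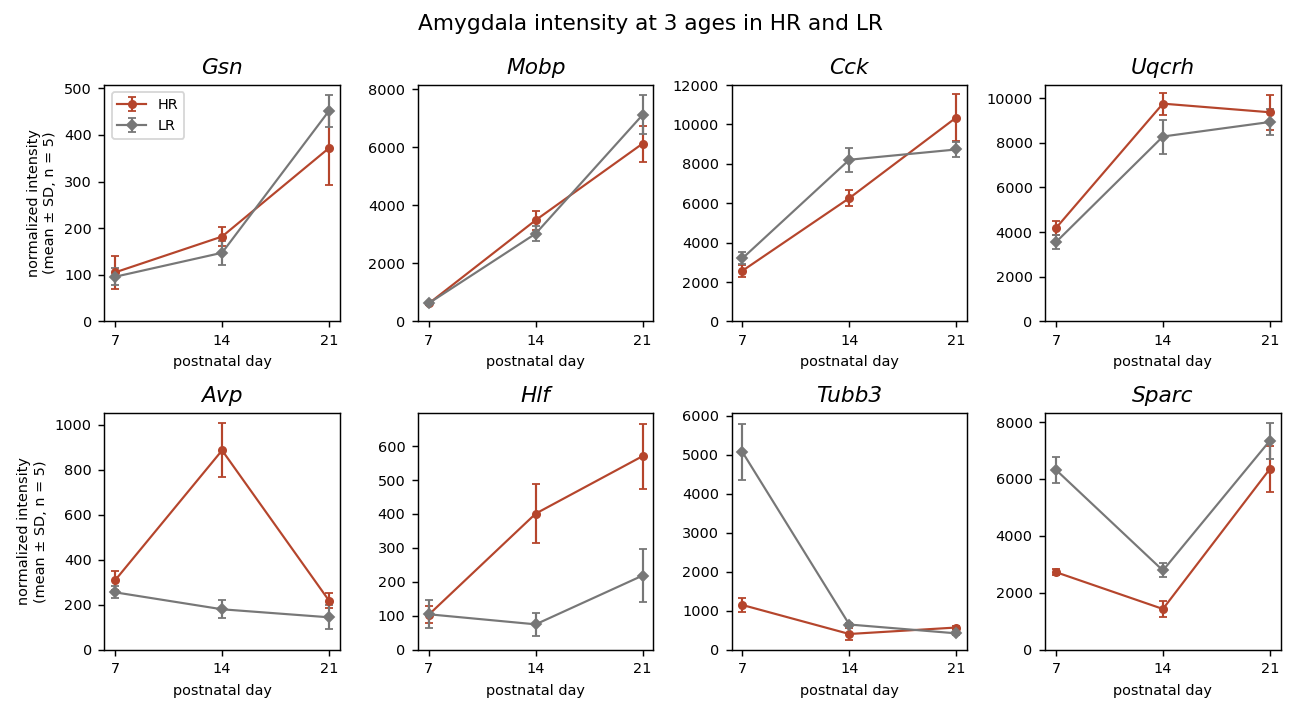
Mean normalized intensity ± SD (n = 5 arrays) of 8 genes in HR (red circles) and LR (grey diamonds) amygdala at postnatal days 7, 14 and 21, on linear axes that start at 0. Gsn and Mobp have higher means at each later age in both lines, Avp has its highest mean at P14 in HR but not in LR (at P14 886 ± 119.5 in HR and 179 ± 40.01 in LR), and Sparc is lowest at P14 in both lines.

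In HR prefrontal cortex, fitted in its own table, 51 of 18564 rows (0.275%) were called between P14 and P7, 26 higher (0.14%) and 25 lower (0.135%). Values from the 2 tables are set side by side without a test between them. Cck and Cort rose there too, by 1.36 ± 0.23 (adjusted p = 0.00518) and 3.73 ± 0.44 (adjusted p = 3.2e-05), and Gap43, Ybx1, Stmn1, Tubb5 and Tubb3 fell, with differences of -3.17, -4.45, -3.03, -3.17 and -2.32, all with an adjusted p under 0.05. Mobp had 2.13 ± 0.55 (adjusted p = 0.0991), with a larger SE than in the amygdala, and did not pass the test. Avp had -0.03 ± 0.32 (adjusted p = 0.979) and Zfp319 -0.20 ± 0.38 (adjusted p = 0.881). Of 53 oxidative phosphorylation genes 1 was called higher, at a median of 0.20, and of 29 tubulin and microtubule genes 3 were called lower, at a median of -0.68.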

How the data were processed

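Total RNA of 60 samples, amygdala and prefrontal cortex of HR and LR male rats at P7, P14 and P21 (5 arrays per group), was measured on single-colour arrays. The authors deposited normalized intensities on a linear scale, obtained with RMA, which the submitters' processing notes name without a version; as a method it corrects background, normalizes between arrays and summarises probes, so that a shift shared by most genes would be reduced. The number of arrays, and not a count depth, limits the precision.

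Intensities were turned to log2, and limma 3.58.1 in R 4.3.3 was fitted to 6 group means over 30 amygdala arrays, with Benjamini-Hochberg adjustment over 17519 rows. A log2 scale had been assumed in planning the tests, and the linear values were transformed accordingly. Of these rows 13441 were named by gene ID or accession through RefSeq (assembly GRCr8, names only), 3267 kept the symbol of the file and 811 had none; 1046 lines without an identifier were left out. A gene with several rows was represented by the row with the highest mean. The prefrontal table was fitted separately.

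Named genes were the 12 largest non-overlapping differences in each direction, up to 5 members with the lowest adjusted p in each of 33 gene lists plus chosen anchor genes, and the 6 largest HR minus LR differences in each direction. Some results are not reported here. The genes and lists were chosen with earlier results of these data known. Simulated data with 200 changed rows (17519 rows, 10 simulations) tested this fit: 8.06%, 56.7% and 99.2% of changes of 0.5, 1 and 2 were recovered, and 7.24% of the calls were false. Residuals were drawn at random over the arrays, so no difference between array sets went along with age there. In the HR amygdala arrays age and array set coincide, and the 7.24% does not give the false share of their calls. Alternatives were other scalings, filters, thresholds, blocks for replicate number, array set and sample code prefix, and fits without single arrays. Promoter windows run from 250 bases before to 50 bases after a RefSeq gene start.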

Additional observations from a re-analysis of the deposited data

Results flagged for a closer look

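In 14 of 210 groups of 5 arrays tested, 1 array lay far from the other 4; chance alone gives about 1 in 20. At P14 these were Fnip2 on array 41 (2906), F13b on array 43 (84.2), RT1-O1 on array 41 (37.2), S100b on array 44 (326), Ntsr2 on array 41 (291), Cdk4 on array 45 (98.9), Cacng2 on array 45 (30.1) and Fgfr2 on array 41 (81.1). At P7 they were Haus8l2 on array 54 (394.6), Gfap on array 53 (89.4), C1qa on array 54 (144), Cdk4 on array 53 (374), Sox4 on array 51 (1708) and Uqcrh on array 51 (4750). Array 41 was the array apart in 4 of the 8 groups at P14.

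The difference between P14 and P7 itself differed between the lines in a set of genes, tested as the HR difference minus the LR difference. Larger in HR, or less negative, were Cpe (2.70), Hspa8 (2.60), Tubb2b (2.60), Hlf (2.47), Haus8l2 (2.35), a gene named for a subunit of the mitotic augmin complex, Gpn2 (2.33), a GTPase, Avp (2.05), Ptgds (2.03), Tubb5 (1.77), Pmch (1.74), Rflnb (1.64), Tubb2a (1.64) and Ero1b (1.61). The same held for Grin1 (1.46), Tubb3 (1.38), Ldha (1.33), a subunit of lactate dehydrogenase, Smarca4 (1.28), Camk2b (1.24), Atp5f1b (0.92) and Rps27 (0.67), a ribosomal protein. Lower in HR were F13b (-2.02), the histone gene Hist2h2be (-1.94), the olfactory receptor Or52p1 (-1.88), C1h19orf12 (-1.62), Uba3 (-1.61), part of the enzyme that activates NEDD8, Alox5ap (-1.57), the activator of 5-lipoxygenase, Scn2a (-1.46) and Cplx2 (-1.15). The P14 minus P7 difference of Pmch was -0.14 in HR, not called, and -1.88 in LR.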

How the results depend on the processing

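In HR amygdala the 3078 rows called between P14 and P7 became 1817 at an adjusted p under 0.01, 404 with array set as a block and 1234 with array set as a random block, which was chosen after seeing the data; without single HR arrays they numbered 2699 to 2868, and without single LR arrays 3056 to 3230. Sample code prefix as a random block, also chosen after seeing the data, gave 3149 rows. The replicate number of the labels as a block gave 1981 rows with the 10 arrays and 2960 with all 6 groups. Deviations of samples with the same number correlated between -0.0209 and 9.12e-05 across the ages, and samples did not correlate best with their own number, so the numbers did not pair the samples. Members called over the gene lists numbered 192, against 118 with the replicate block, 45 with array set as a block and 112 with array set as a random block (172 to 183 without single HR arrays, 188 to 195 without single LR arrays). All 24 ranked genes stayed called without any single array, and 7 with array set as a block. Under that block V1ra14 (-0.20), RT1-O1 (0.083), RT1-M6-1 (0.26), Pax5 (0.046), Artn (0.092) and Crh (0.14) changed sign, and of 105 differences named here 52 stayed on their side of the threshold and 47 were no longer called; the cause was not tested. For the HR minus LR test, 452 rows became 685 when tested in rows at or above the median row, 175 at an adjusted p under 0.01 and 678 with a trended, robust variance prior; without single HR arrays they numbered 367 to 444 and without single LR arrays 387 to 546. Of 28 named differences between the steps, 22 stayed called with array set as a block, and the other 6, not listed here, did not. The share of higher calls in that test was 60.8% without arrays 36, 47 and 48 and 64.7% with the trended prior; in the HR step it was 64.4% with array set as a block, against 52.9%. In prefrontal cortex 51 rows became 100 after quantile normalization. In HR amygdala a comparison within 1 array set was not possible, since no set held both ages. Array sets were not tested in prefrontal cortex. For a single gene, 5 arrays against 5 allow 252 splits and a smallest two-sided exact permutation p of 0.00794.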

Other observations

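Protein synthesis and folding genes were mixed between P14 and P7 in HR amygdala. Of 69 ribosomal protein genes, 9 were called higher and 11 lower (29% in all, against 17.5% of all genes), with a median of -0.03 and a summed intensity of 685800 to 718100 at P14 and 702100 to 712600 at P7. Of 24 genes of heat shock and the unfolded protein response, 2 were called higher and 4 lower (25% in all), and Hspa8, the constitutive HSP70, was among the lower with intensities of 82.6, 99.01, 93.6, 87.05 and 85.1 at P14, against 95.7, 147, 228, 247 and 165 at P7, at -0.90 ± 0.22 (adjusted p = 0.00358); with array set as a block it was -0.21 ± 0.35 (adjusted p = 0.83) and not called. Of 11 circadian genes, 2 were called higher, 1 lower and 8 neither (27.3% in all, against 17.5% of all genes). Hlf and Tef, which encode related PAR-domain factors, were higher, at 1.96 and 0.82. Nfil3, a repressor at the same sites, was lower, at -0.97. With array set as a block Tef stayed called at 1.53, and Hlf (adjusted p = 0.106) and Nfil3 (-0.39) did not. Per1, among the 8, had 0.10 ± 0.17 (adjusted p = 0.733). The hour at which tissue was taken was not tested.

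Signalling and matrix genes differed in how often they were called. Of 16 genes of neurotrophin signalling, 5 (31.2%) were called higher and 1 (6.25%) lower, against 9.09% and 8.39% over all genes, with a median of 0.33. With array set as a block 0 were called, and without array 42 or array 43 only 3 in all. Of 27 genes of perineuronal nets and extracellular matrix, 3 were called higher and 4 lower (25.9% in all), among the lower Reln at -0.82. Of 15 genes of glucocorticoid and stress signalling, 1 (Crh) was called (6.67%). Cholesterol synthesis, which supplies myelin, gave 1 gene higher and 0 lower of 21 by limma, with 2 higher and 2 lower at an unadjusted p under 0.05. Among 18 immediate early genes 1, Egr1, was called, at 1.10, a call lost with array set as a block at 0.48 (adjusted p = 0.701), and of 19 genes of MHC and the interferon response 2 were called higher and 1 lower (15.8% in all).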
